A study of Mus musculus with 36 samples.

Results

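The data are the transcriptomes of 9 pairs of mouse midbrain neurons, in which the 2 cells of a pair belong to the same clone but were taken from different layers of the superior colliculus. One cell of each pair carries the tissue label sSC and the other the label dSC, read here as the superficial and the deep superior colliculus. The pairs were defined by these labels, with earlier results of these data already known. Every clone with 1 sSC cell and 1 dSC cell was taken, which gave clones A, B, C, F, I, J, L, Q and U. They hold 18 of the 36 sequenced cells and are 9 of the 18 clones. The other 18 cells, 13 from sSC, 3 from dSC and 2 from PAG (read as the periaqueductal grey), were used only to look at genes outside the pairs.

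The question put to the pairs is which genes differ between the superficial and the deep descendant of the same progenitor. All cells came from mice of the M11GTTG line, in which MADM (mosaic analysis with double markers) colours the descendants of a single dividing cell after Cre recombination. The protocols call the clones E12 clones, read here as labelled on embryonic day 12. Recombination was driven by Fz10-CreER in 7 clones (A, B, C, I, J, L and U) and by Sox2-CreER in 2 clones (F and Q), both inducible recombinases under genes of neural progenitors. The mice were of a mixed C57/Bl6, FVB and CD1 background and of both sexes. The labels give an age range for experiments of E9.5 to P30 but not the age of these cells, and they name no animals, so several clones can come from the same mouse. Each library was made from the polyadenylated RNA of a single cell.

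The superior colliculus is a layered midbrain structure. Its superficial layers receive input from the retina and visual cortex, and its deep layers combine several senses and drive orienting movements of the head, eyes and body. Neurons of all layers arise from radial glia of the dorsal midbrain, and both excitatory neurons, which load glutamate into vesicles through Slc17a6, and inhibitory neurons, which make GABA with Gad1 and Gad2, are found throughout.

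Expression is given as the deposited value, a normalised signal per gene, called an exon plus intron TPM by the authors, that sums to 2000000 in every cell. Differences are sSC minus dSC on the scale of log2(value + 1), averaged over the 9 clones, so a negative difference means lower in the sSC cell than in its dSC partner. This scale understates the difference of low genes. Of 27597 genes above 0 in any of the 18 cells, 14662 reached a value of 1 in a minimum of 25% of the cells and were tested with limma, with the clone as a block and a threshold of 0.05 on the Benjamini-Hochberg adjusted p.

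The cells held neuronal transcripts, and 3 markers of the superficial layers, picked after their values were seen, ran in different directions. All 20 neuron markers were at 1 or more in the median sSC cell and in the median dSC cell, with 15 in the lowest sSC cell and 19 in the lowest dSC cell. Snap25, a synaptic fusion protein, ran from 299.8 (clone B) through a median of 2619 to 3562 in sSC cells and from 1479 to 2528 in dSC cells. Ntsr1 and Grp, known from mouse work as markers of wide-field and narrow-field cells of the superficial layers, were listed at 0 in all 9 sSC cells. Among the dSC cells Ntsr1 was at 1 or more in 2 and Grp in 3. Rorb, a nuclear receptor used as a marker of superficial collicular layers, reached 1 in 6 sSC cells and 6 dSC cells, with medians of 24.1 in sSC and 7.63 in dSC. The tissue names below stand for the labels. In 9 of 9 pairs the Y-linked gene Eif2s3y was above 0 in both cells or in neither.

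The sSC cell of a pair usually had fewer detected genes than its dSC partner, and this runs beside every result below. Genes that reached a value of 1 numbered 10821, 2661, 11544, 9192, 7652, 9297, 8852, 16769 and 11898 in the sSC cells of clones A, B, C, F, I, J, L, Q and U. In the dSC cells of the same clones they numbered 15472, 12242, 15220, 12161, 11955, 12313, 9511, 13815 and 11807. Only clones Q and U had more genes in the sSC cell, and the sSC cell of clone B stood far below all other cells. The means were 9854 ± 3777 in sSC and 12722 ± 1852 in dSC (SD, n = 9 each), a difference of -2868 genes (two-sided exact sign-flip test, p = 0.0312). Without clone B it was -2029 genes (exact p = 0.0625), and 2 of the 8 clones were higher in sSC. Leaving out clone A, C, F, I or J in its place also gave an exact p between 0.0547 and 0.0625. Read depth is unknown, since the values keep none.

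The same tilt appeared gene by gene. Of the 14662 genes, 11273 (76.9%) had a difference below 0 and 3389 (23.1%) above 0, with a median of -0.67. The median difference over all genes was -3.24 in clone B, -0.62 in clone A and -0.56 in clone I. It was 0.09 in clone Q and 0 in the other 5 clones. When only genes at 1 or more in both cells of a pair were counted, the medians lay between -0.31 (clone L) and 0.41 (clone J). In clone B, 8744 tested genes were at 1 or more in the dSC cell alone and 294 in the sSC cell alone. The median over all genes moved to -0.36 without clone B, to -0.03 after quantile normalization and to 0.07 with the number of detected genes as a covariate. Differences are therefore read below against that median.

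**Figure D1:**
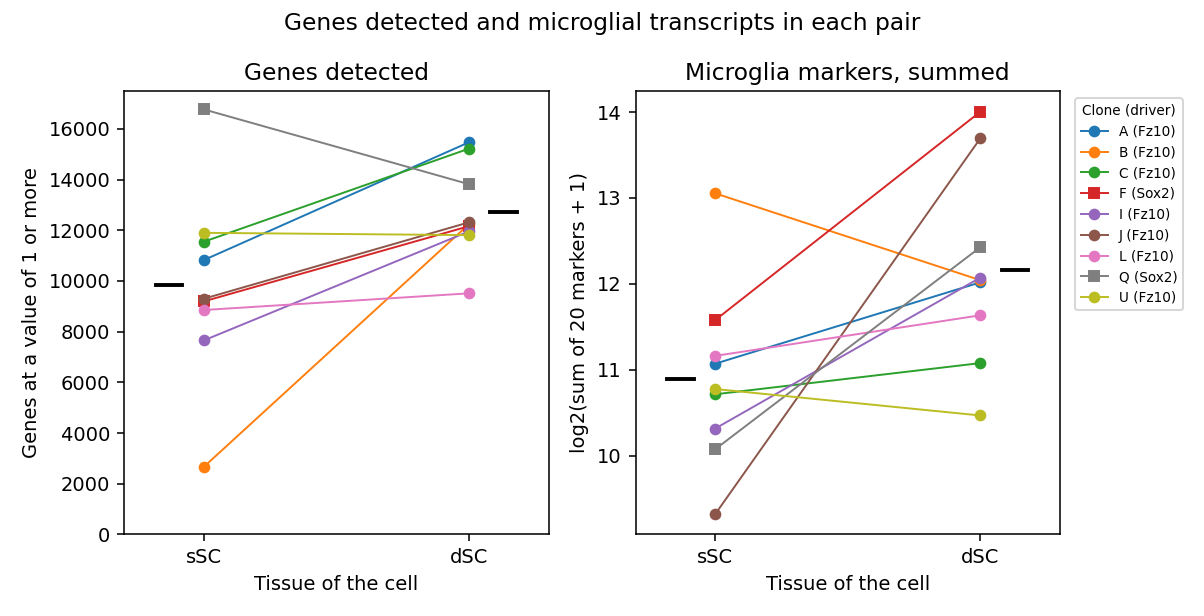
Each line joins the sSC cell (left) and the dSC cell (right) of a clone, with circles for Fz10-CreER and squares for Sox2-CreER clones and black bars for group means. The left panel plots how many genes reached a value of 1, where the clone B sSC cell has 2661, and the right panel the log2 of the summed value of 20 microglia markers plus 1, higher in sSC in clones B and U only.

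A single gene passed the threshold, and it was lower in the sSC cells. Lst1 (leukocyte specific transcript 1, a small protein best known from myeloid and lymphoid cells, encoded in the major histocompatibility complex) was listed at 0 in the sSC cells of 8 clones and had a value of 56.9 in that of clone U. In the dSC cells of clones A, B, C, F, I, J, L, Q and U it had values of 155, 198.5, 106, 604, 159, 269.5, 262, 562 and 239. The groups did not overlap: the lowest dSC value lay above the single sSC value above 0. Lst1 differed by -7.28 (SE 0.88, limma adjusted p = 0.00274), the only call among 14662 genes, or 0.00682%. It was lower in 9 of 9 clones, and the exact sign-flip p of 0.00391 is the smallest that 9 clones allow. Every gene lower in all 9 clones (62 genes, 0.423%) gets this exact p. It is not adjusted for the number of genes and adds no separate support for a gene picked by its values. Without clone B the difference of Lst1 was -7.24 (SE 0.91, limma adjusted p = 0.0168).

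The call did not hold in every fit. With the number of detected genes as a covariate, the difference of Lst1 was -7.13 (SE 1.15, limma adjusted p = 0.175). In the 7 Fz10-CreER clones alone it was -6.74 (SE 1.08, limma adjusted p = 0.105). Over the 20 alternatives the adjusted p lay between 3.41e-05 and 0.175. The split between sSC and dSC was also not seen in the cells outside the pairs. There Lst1 reached 1 in 7 of 13 sSC cells (up to 307.8), and it was listed at 0 in 2 of 3 dSC cells and at 150.8 in the other.

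At an unadjusted p under 0.05 stood 1313 genes (8.96%), of which 1253 were lower in sSC (8.55%) and 60 higher (0.409%). Genes lower in the sSC cell of all 9 clones numbered 62 (0.423%). Genes at 1 or more in the dSC cell alone in 7 or more clones numbered 34 (0.232%), against 0 in the sSC cell alone. Besides Lst1, the groups did not overlap for Edem2 and Tbc1d2b, so that 3 genes (0.0205%) had every dSC value above every sSC value, against 0 the other way.

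**Figure D2:**
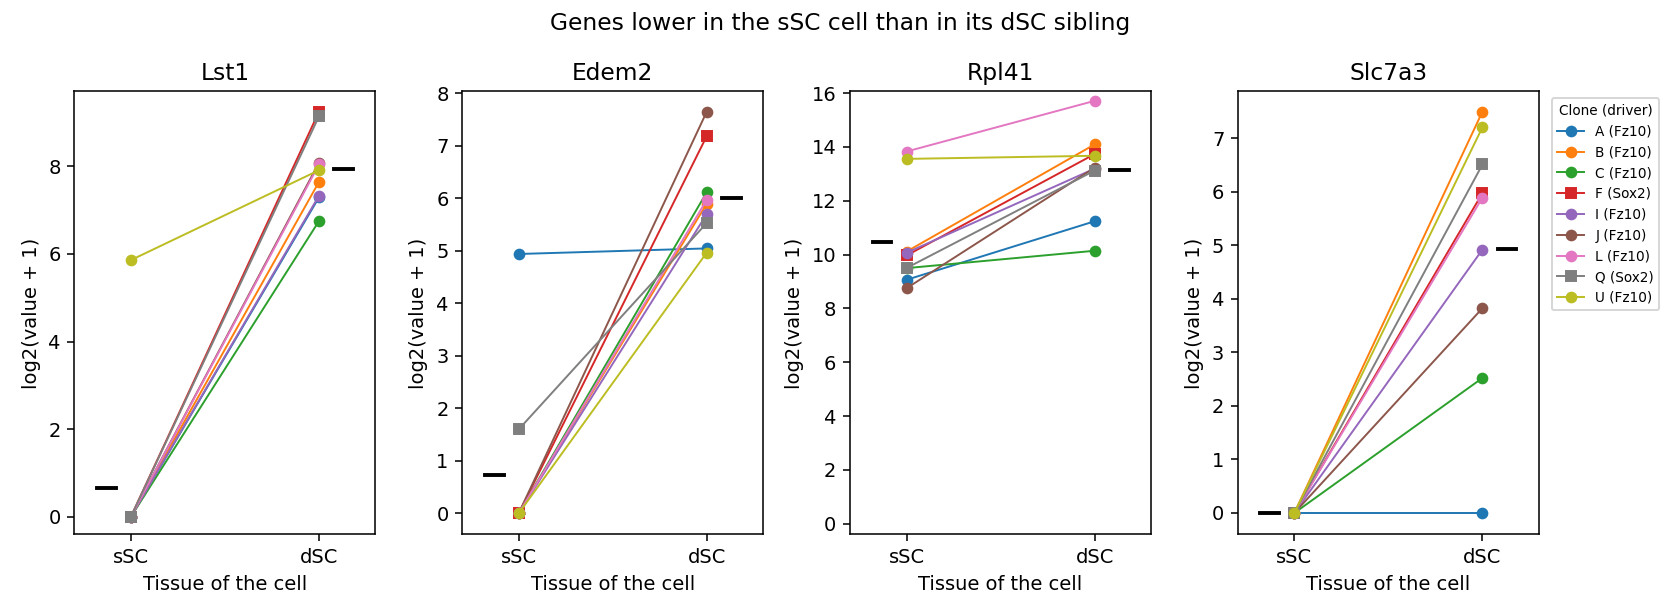
Values of Lst1, Edem2, Rpl41 and Slc7a3 as log2(value + 1) in the sSC cell (left) and dSC cell (right) of each clone. Lines join the cells of a clone, circles mark Fz10-CreER and squares Sox2-CreER clones, and black bars are means over 9 cells; Lst1 is at 0 in 8 sSC cells and Slc7a3 in all 9.

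Edem2 came next. It encodes a mannosidase of the endoplasmic reticulum that marks misfolded glycoproteins for degradation. In the sSC cells it had values of 29.7 in clone A and 2.03 in clone Q and was listed at 0 in the other 7. The dSC cells had 32.1, 58.7, 68.5, 145, 51.1, 200.4, 61.9, 45.3 and 30.3 in the order of the clones above. Every pair was lower in sSC, but in clone A by little. Edem2 differed by -5.28 (SE 0.91, limma adjusted p = 0.099; exact p = 0.00391) and did not pass. It passed without clone A, the pair with the smallest difference (-5.93, limma adjusted p = 0.0382). Over the fits that left out 1 clone the limma adjusted p of Edem2 ran up to 0.4275, and over all alternatives to 0.998. Outside the pairs Edem2 reached 1 in 10 of 13 sSC and all 3 dSC cells.

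Rpl41, a very small basic protein of the large ribosomal subunit, showed a graded difference, because every cell expressed it. The sSC cells had 533, 1104, 721, 999, 1071, 429, 14552, 723 and 12040. The dSC cells had 2413, 17478, 1128, 13627, 9362, 9605, 53701, 8914 and 13042, again in clone order. The sSC cell was the lower in 9 of 9 clones, although the sSC cells of clones L and U lay above most dSC cells. The difference was -2.64 (SE 0.46, limma adjusted p = 0.099; exact p = 0.00391). It passed without clone U, the pair with the smallest difference (-2.96, limma adjusted p = 0.045). Over the fits that left out 1 clone the limma adjusted p of Rpl41 ran up to 0.4275, and over all alternatives to 0.998. Ribosomal protein genes have many near-identical processed copies, and how the authors counted reads that match several is not given. The values of Rpl41 are therefore uncertain.

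Slc7a3, a transporter of arginine and other cationic amino acids, was listed at 0 in all 9 sSC cells. In dSC cells it was listed at 0 in clone A and had 179, 4.74, 61.8, 29.2, 13.2, 58.3, 89.9 and 146 in clones B, C, F, I, J, L, Q and U. The groups touch only at the 0 of clone A. Slc7a3 differed by -4.92 (SE 0.93, limma adjusted p = 0.188; exact p = 0.00781, with 8 clones lower and 1 equal). Outside the pairs it reached 1 in 8 of 13 sSC and 1 of 3 dSC cells.

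The other genes of smallest p lower in sSC shared an adjusted p of 0.452 in limma, and none passed. Lgals9, a galectin that binds sugars on cell surfaces, was at 1 or more in 1 sSC cell and 8 dSC cells and differed by -4.61 (SE 0.98). Slc33a1, which carries acetyl-CoA into the endoplasmic reticulum, differed by -4.11 (SE 0.91), with values up to 67.3 in sSC and from 11.5 to 160 in dSC. Pbx2, a homeodomain transcription factor, differed by -3.999 (SE 0.91) and was lower in 9 of 9 clones. Vamp3, a fusion protein of recycling endosomes, differed by -4.08 (SE 0.91), and clones F and Q had values of 74.2 and 82.0 in the sSC cell, against 108 and 80.6 in the dSC cell. Sh2b3, an adaptor that dampens cytokine signalling, differed by -3.71 (SE 0.84). The noncoding or unnamed models CT030661.1, A230103J11Rik, 9330159M07Rik and Gm18985 differed by -4.56, -4.08, -3.70 and -4.53. Slc33a1, Sh2b3, A230103J11Rik and 9330159M07Rik overlap a gene on the opposite strand, and whether strand was used in counting is not given. Vamp3 and Pbx2 overlap Camta1 and Gpsm3 on the same strand. Tbc1d2b, picked here because its groups did not overlap, was at 0 in all 9 sSC cells and between 0.441 and 41.2 in dSC cells (difference -2.89, SE 0.70, limma adjusted p = 0.452). It overlaps Adamts7 on the opposite strand.

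No gene passed in the direction of higher values in sSC cells: limma called 0 of the 14662 genes, and 60 stood at an unadjusted p under 0.05. Hs3st1, an enzyme that adds a sulfate to heparan sulfate chains, had 146, 0, 189, 0, 421, 251, 44.9, 78.3 and 61.9 in the sSC cells in clone order. The dSC cells had 0, 0, 63.7, 4.22, 69.9, 0.232, 1.45, 1.28 and 0. Hs3st1 was higher in sSC in 7 clones and lower in clone F (difference 3.55, SE 1.07, limma adjusted p = 0.461). Fahd2a ran from 116 through 302.5 to 554 in sSC cells and from 0 through 67.6 to 464 in dSC cells, higher in sSC in 7 of 9 clones (difference 3.33, SE 1.09, limma adjusted p = 0.484). Dhodh, a mitochondrial enzyme of pyrimidine synthesis, differed by 2.84 (SE 0.96), and Mapk1ip1l by 2.77 (SE 0.97). The orphan receptor Gpr27 differed by 2.59 (SE 0.93), the Src-family kinase Yes1 by 1.86 (SE 0.65) and Saysd1 by 3.01 (SE 1.06). Their limma adjusted p lay between 0.486 and 0.494.

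Some genes of this direction share their locus with another gene. Nfkbil1, related to inhibitors of the transcription factor NF-kappa-B, was at 1 or more in the sSC cells of clones I, J, L, Q and U and in no dSC cell, where the highest value was 0.79 (difference 2.89, SE 0.95, limma adjusted p = 0.484). It overlaps Atp6v1g2 on the opposite strand, a proton pump subunit with medians of 816 in sSC and 841.5 in dSC. Klhdc9 (3.16), Gm47802 (3.07) and Gm12764 (2.17) likewise overlap Pfdn2, Zmynd11 and Lsm14a on the opposite strand. 1700023F06Rik, which overlaps Spata32 on the same strand, differed by 2.52 and Gm14111 by 1.28.

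Higher in the sSC cell of all 9 clones were 5 genes (0.0341%), named here after their values were seen. Adcy2, an adenylyl cyclase that makes cyclic AMP, ran from 17.8 through 62.6 to 267 in sSC cells and from 0.112 through 25.2 to 108 in dSC cells (difference 1.96, SE 0.90, limma adjusted p = 0.552). C1d, a cofactor of the nuclear RNA exosome, had medians of 279 in sSC and 159 in dSC, and Mea1 had medians of 527 in sSC and 309 in dSC. Flywch2 and Gm11223 were the others. The differences of these 4 lay between 0.75 and 1.00, with limma adjusted p from 0.628 to 0.679. For Adcy2 the difference in single clones ran from 0.05 to 6.50. In 8 or 9 clones 56 genes were higher in sSC (0.382%) and 488 lower (3.33%).

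**Figure D3:**
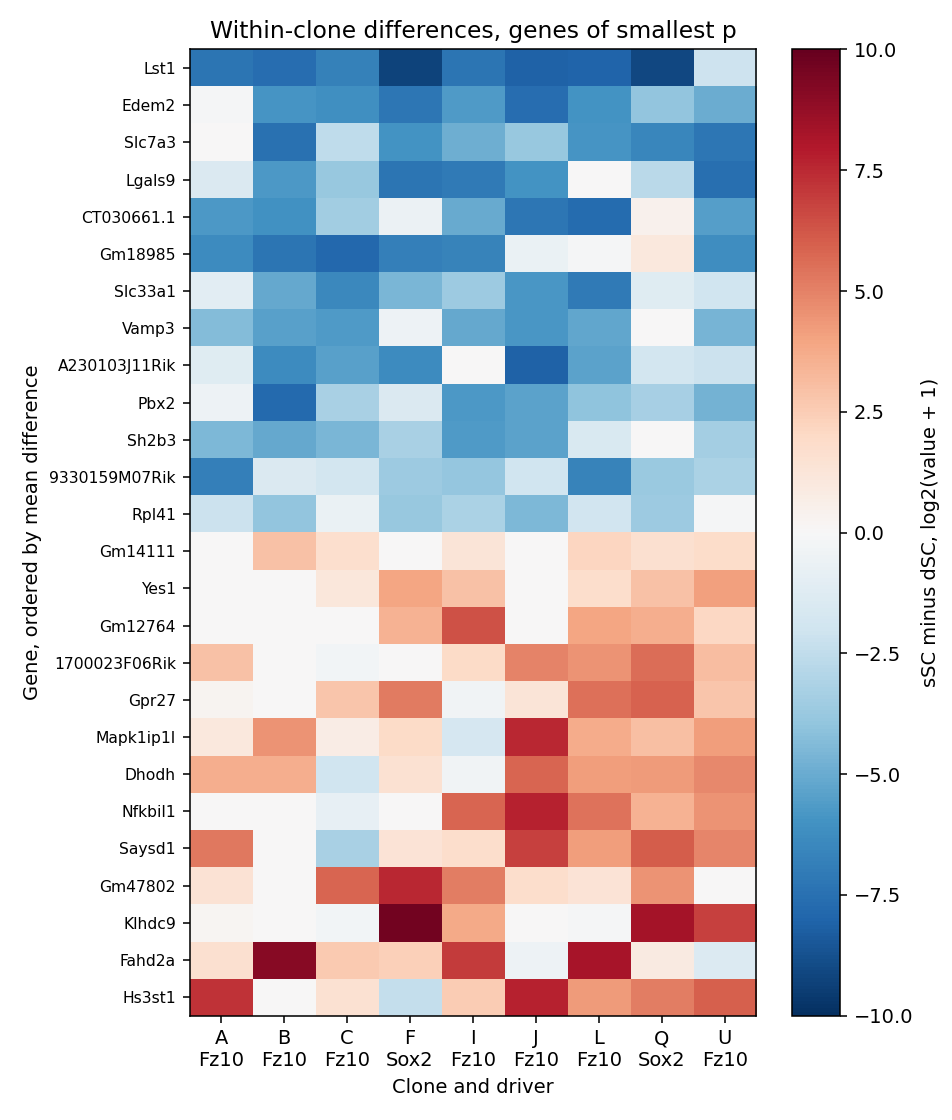
Differences sSC minus dSC on the log2(value + 1) scale, per clone (columns) for the 13 genes of smallest p in each direction (rows, ordered by mean difference), blue for lower in sSC and red for higher. Lst1 is blue in every clone, least so in clone U at -2.05, while Hs3st1 is red in 7 of 9 clones.

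Among the 13 genes of smallest p lower in sSC, 4 also had a lower mean in the 13 sSC cells outside the pairs than in the 3 dSC cells there. Among the 13 higher in sSC, 11 had the same direction outside the pairs. The share of all genes that ran each way in those outside cells was not computed, so these counts lack a background. With 3 dSC cells from 2 clones outside the pairs, they are descriptions with no test.

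Lst1 lies beside Aif1 in the class III region of the major histocompatibility complex, and Aif1, an actin-binding protein widely used to stain microglia, showed the next clearest difference in that region. In the sSC cells it had 68.7, 0, 161, 131, 0, 0, 189, 11.7 and 52.5, and in the dSC cells 185, 409, 315, 304.5, 154, 565, 722, 517 and 61.9, in clone order. It was lower in sSC in 9 of 9 clones (difference -4.02, SE 1.05, limma adjusted p = 0.452). The list of neighbours of Lst1 was drawn up when earlier results of these data had already named Lst1. Of 13 tested neighbours, 12 were below 0, against 76.9% of all genes, with a median of -0.89, and Nfkbil1 was the exception. After quantile normalization 8 of 13 were below 0, against 51.4% of all genes.

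Microglia markers had the lowest median difference of the gene lists, with no member past the threshold. Microglia are the macrophages of the brain, and a neuron library can hold their RNA. Of 20 markers 19 were tested, and 19 of 19 had a difference below 0, against 76.9% of all genes, with a median of -1.61 against -0.67 over all genes. None passed the adjusted threshold in limma, and 6 of 19 were lower in sSC at an unadjusted p under 0.05, against 8.55% of all genes. After quantile normalization 19 of 19 were below 0 (median -1.36), against 51.4% of all genes. With detected genes as a covariate 17 of 19 were below 0 (median -1.21), against 47.6% of all genes. The median per clone was below 0 in 7 of 9 clones, and lowest in clone J at -6.18.

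Single members varied in how far they differed. Ctss, a lysosomal protease, was present in every cell, from 3.33 through 177.5 to 1100 in sSC and from 288 through 756 to 3351 in dSC, lower in sSC in 9 of 9 clones (difference -2.68, SE 0.70, limma adjusted p = 0.452). Cd68, a lysosomal membrane protein of macrophages, had medians of 0.82 in sSC and 214 in dSC (difference -4.34, SE 1.20, limma adjusted p = 0.452). Tyrobp, a signalling adaptor of myeloid receptors, had medians of 303 in sSC and 882 in dSC (difference -2.20, SE 1.01). The homeostatic markers P2ry12 and Tmem119 differed less, by -0.92 (SE 1.22) and -1.24 (SE 1.36). Ptprc, the common leukocyte antigen CD45, was at 1 or more in 1 sSC cell and 5 dSC cells.

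The summed microglia markers can be set beside Lst1 clone by clone. The sum was 2148, 8502, 1678, 3053, 1272, 636.5, 2288, 1076 and 1751 in sSC cells and 4145, 4215, 2159, 16442, 4307, 13275, 3176, 5508 and 1414 in dSC cells, in clone order. On the log2 scale it was 10.89 ± 1.05 in sSC and 12.16 ± 1.13 in dSC (SD, n = 9 each), a difference of -1.27 (two-sided exact sign-flip test, p = 0.0508). On the plain scale the difference was -3582 (exact p = 0.102). In clone B the sSC cell had the larger sum (8502, against 4215 in the dSC cell), yet Lst1 was at 0 in the sSC cell and at 198.5 in the dSC cell. In clone U the sSC cell also had the larger sum (1751, against 1414), with Lst1 at 56.9 in the sSC cell and 239 in the dSC cell. In the other 7 clones both ran the same way. For other cell types the median summed value was 988 in sSC and 1605 in dSC for 14 astrocyte markers, and 3996 in sSC and 3593 in dSC for 16 oligodendrocyte markers. For 16 vascular markers it was 336 in sSC and 141 in dSC, for 14 radial glia and ependymal markers 127 in sSC and 306 in dSC, and for 6 red blood cell markers 382 in sSC and 592 in dSC. Their part in the Lst1 difference was not tested.

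Lysosomal and antigen-processing genes overlap this list in part. Of 23 tested, 20 were below 0 (median -0.90), against 76.9% of all genes. At an unadjusted p under 0.05 stood 7 of 23, all lower in sSC and among them Lgals9, Ctss and Cd68, against 8.55% of all genes. After quantile normalization 17 of 23 were below 0, against 51.4% of all genes. Of the genes of quality control in the endoplasmic reticulum, to which Edem2 belongs, 27 were tested. Of these, 22 were below 0, a share near the 76.9% of all genes, with a median of -0.68 against -0.67. At an unadjusted p under 0.05 in limma stood 4 of 27, all lower in sSC, against 8.55% of all genes. Sdf2l1, a partner of the chaperone BiP, had medians of 0 in sSC and 86.3 in dSC (difference -3.90, SE 1.06, limma adjusted p = 0.452). Atf6, a membrane-bound stress transcription factor, had medians of 0.528 in sSC and 14.3 in dSC (difference -2.42, SE 0.85, limma adjusted p = 0.486). Hspa5, which encodes BiP itself, differed by 0.23 (SE 0.55), although it was lower in sSC in 6 of 9 clones.

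**Figure D4:**
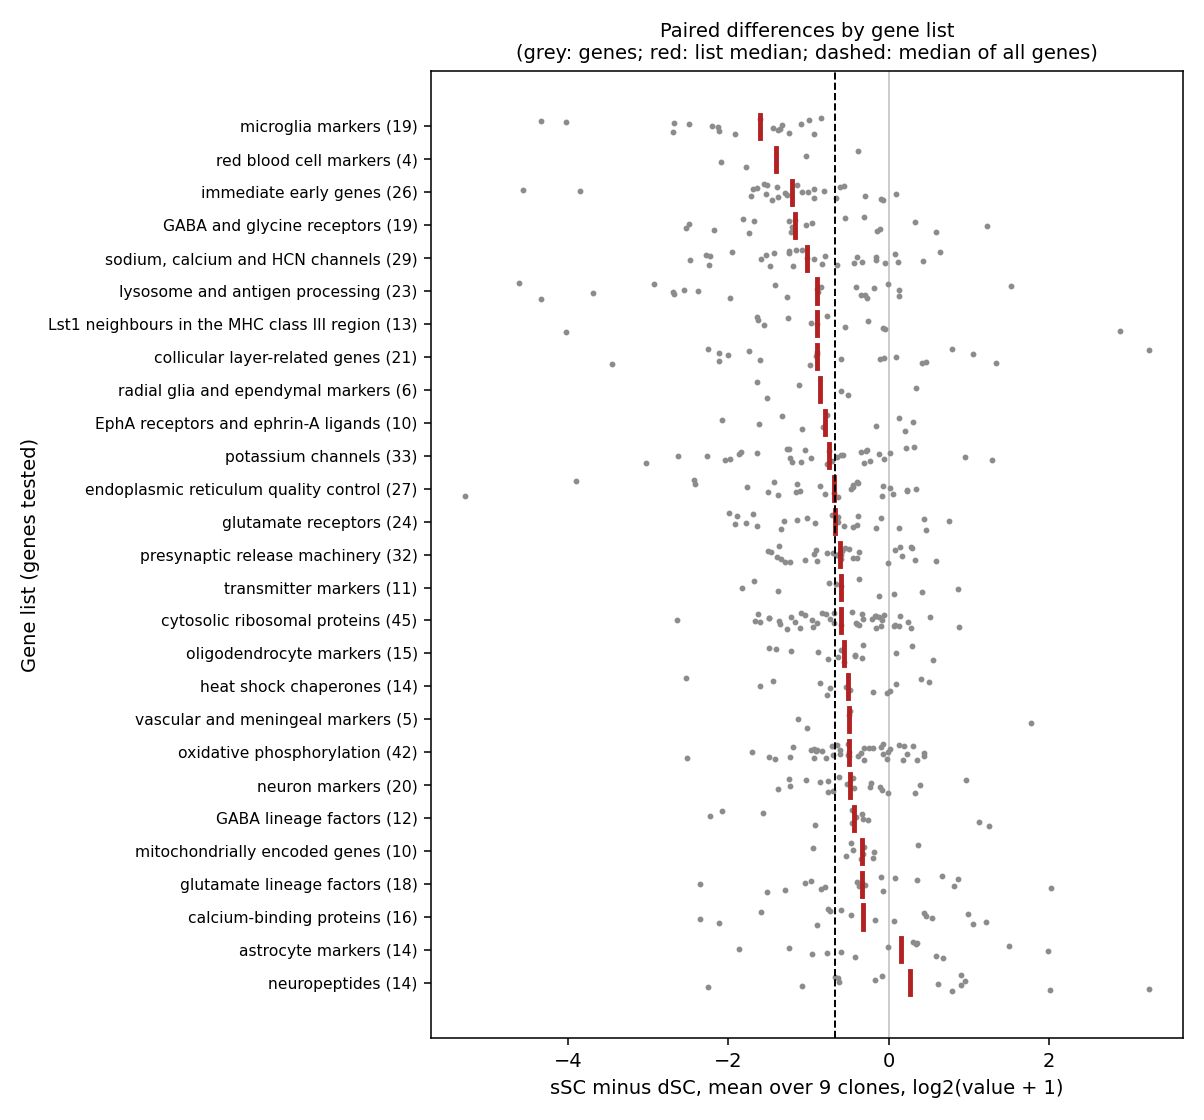
Differences sSC minus dSC, averaged over 9 clones on the log2(value + 1) scale, for the tested genes (grey points) of each gene list, with the list median in red and the median of all 14662 genes (-0.67) as a dashed line. Microglia markers have the lowest median (-1.61), and neuropeptides (0.27) and astrocyte markers (0.15) lie above 0.

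Immediate early genes, which are transcribed within minutes of activity or stress, were mostly below 0. Of 26 tested, 25 had a difference below 0, against 76.9% of all genes, with a median of -1.20. After quantile normalization 21 of 26 were below 0 (median -0.61), against 51.4% of all genes. None passed in limma, and 2 of 26 had an unadjusted p under 0.05, a share no higher than the 8.96% of all genes. Ier3, a stress-induced regulator of survival, was at 1 or more in 4 sSC cells (up to 43.8) and 8 dSC cells (up to 2143), a difference of -4.57 (SE 1.15, limma adjusted p = 0.452). Ier2 was at 1 or more in 1 sSC cell and 7 dSC cells (difference -3.85, SE 1.18, limma adjusted p = 0.461). The classical activity gene Fos had medians of 369 in sSC and 371 in dSC (difference -0.07, SE 0.77), and Arc differed by 0.09 (SE 0.71).

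Channel and receptor genes were below 0 in shares near the 76.9% of all genes, and after quantile normalization, with 51.4% of all genes below 0, most of these counts were near that share too. Of 29 sodium, calcium and HCN channel genes 25 were below 0 (median -1.02), and 15 of 29 after quantile normalization (median -0.04). For 33 potassium channel genes the counts were 28 and 14, and for 24 glutamate receptor genes 20 and 12. Of 19 GABA and glycine receptor genes 16 were below 0 (median -1.17), and 14 of 19 after quantile normalization (median -0.34). No member passed. Gabrb2, a subunit of the common GABA-A receptor, had medians of 6.71 in sSC and 72.3 in dSC and was lower in sSC in 8 of 9 clones (difference -2.53, SE 0.91, limma adjusted p = 0.494). Cacna1i, a T-type calcium channel linked to burst firing, was at 1 or more in 2 sSC cells and 8 dSC cells (difference -2.23, SE 0.80, limma adjusted p = 0.494). Kcna3, a delayed rectifier potassium channel, was at 1 or more in 2 sSC cells and 6 dSC cells, with medians of 0 in sSC and 21.7 in dSC (difference -3.03, SE 0.94, limma adjusted p = 0.461).

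Genes linked to collicular layers and cell types pointed both ways. Of 21 tested, 14 were below 0 (66.7%) and 7 above, a share not far from the 76.9% of all genes below 0. Cbln2, a secreted organiser of synapses, had 52.4, 0, 0, 117, 0, 0, 0, 4.13 and 0 in sSC cells and 30.5, 0, 40.0, 545, 85.2, 119, 0, 82.7 and 121 in dSC cells, in clone order. It was higher in the sSC cell in clone A only (difference -3.46, SE 1.04, limma adjusted p = 0.461). Tac1, the precursor of substance P, had 179, 0, 2254, 0, 1507, 90.6, 0, 714 and 124 in sSC cells and 0, 0, 98.1, 0, 0, 0, 0, 160 and 495 in dSC cells. It was at 0 in both cells of clones B, F and L and higher in the dSC cell in clone U (difference 3.25, SE 1.21, limma adjusted p = 0.494). Ntng1, a membrane-anchored netrin of axons, was lower in sSC in 8 of 9 clones (difference -2.001, SE 0.90, limma adjusted p = 0.544). Rorb differed by 1.35 (SE 1.04, limma adjusted p = 0.699), higher in sSC in 5 clones and lower in 2. Neither the layer markers nor the peptides passed.

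Transmitter markers differed between the layers in both directions within clones. Slc17a6 had 425, 0, 0, 20.3, 0, 849.9, 109, 164 and 421 in sSC cells and 0, 0, 88.4, 345, 369.8, 763, 105, 137 and 0 in dSC cells, in clone order. It was much higher in the sSC cell of clones A and U and much higher in the dSC cell of clones C, F and I. Gad1 had 11.9, 147, 938, 944, 1145, 0, 13.7, 703 and 41.9 in sSC cells and 642, 257.5, 62.3, 40.1, 27.2, 4.76, 48.7, 53.6 and 322.5 in dSC cells. Clones C, F, I and Q were thus richer in Gad1 in the sSC cell, and the other 5 in the dSC cell. Several cells held both markers. The sSC cell of clone Q had Slc17a6 at 164 and Gad1 at 703, and the dSC cell of clone F had 345 and 40.1. These values alone do not assign a transmitter type to each cell.

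None of the transmitter genes differed by layer beyond the spread between clones. The difference was -0.12 for Slc17a6 (SE 1.52), 0.42 for Gad1 (SE 1.11) and -1.38 for Gad2 (SE 1.20). For Slc32a1, which loads GABA into vesicles, it was 0.87 (SE 1.02). Their limma adjusted p lay between 0.737 and 0.989. The differences of Slc17a6 ran from -8.54 in clone I to 8.73 in clone A. A balance per cell, taken as the average log2 level of the 3 GABA genes less the log2 level of Slc17a6, was -0.17 ± 6.45 in sSC and -0.27 ± 5.76 in dSC (SD, n = 9 each; exact p = 0.969). Its sign was opposite in the 2 cells of 5 pairs. In some cells the balance lay near 0, at -0.11 in the sSC cell of clone Q and -0.86 in the dSC cell of clone C. Slc6a5, the glycine transporter of inhibitory neurons, was at 1 or more in 2 sSC cells and 6 dSC cells (difference -1.82, SE 0.90, limma adjusted p = 0.563).

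**Figure D5:**
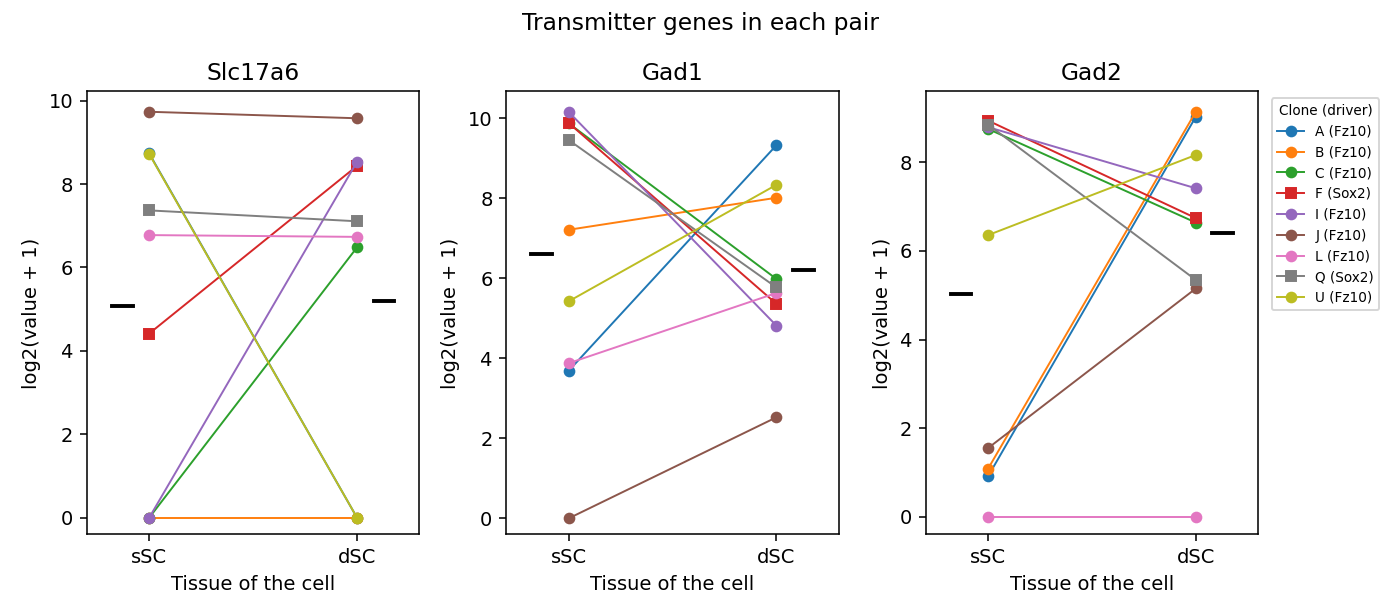
Slc17a6, Gad1 and Gad2 as log2(value + 1) in the sSC cell (left) and dSC cell (right) of each clone, with circles for Fz10-CreER and squares for Sox2-CreER clones and black bars for means over 9 cells. Lines cross in all 3 panels, and the means of Slc17a6 differ by -0.12.

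Across the 14662 genes the 2 cells of a clone were seldom each other's closest match. Their Pearson correlation on the log2 scale ran from 0.281 (clone B) through a median of 0.482 to 0.614 (clone C), a description across genes, which are not independent replicates and share detection. An sSC cell had its own partner as the best match among the 9 dSC cells in 0 of 9 clones, and a dSC cell among the 9 sSC cells in 1 of 9. A random choice among 9 cells would give the partner in about 1 of 9, so these counts are near that share. For clone C the correlation was 0.614, against a mean of 0.545 for its sSC cell with the other dSC cells. For clone L it was 0.47, against 0.503.

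The driver of recombination was set against the paired difference in a separate fit of the 7 Fz10-CreER and 2 Sox2-CreER clones. limma called 0 of the 14662 genes (0.0%), and 582 (3.97%) had an unadjusted p under 0.05. Gm17122 came nearest: its difference averaged -6.93 ± 5.81 in Fz10-CreER clones (SD, n = 7) and 10.96 in Sox2-CreER clones, with 9.90 in clone F and 12.03 in clone Q (limma adjusted p = 0.9996). Uvssa, a factor of transcription-coupled DNA repair, was below 0 in 6 Fz10-CreER clones and 0 in clone L, with a mean of -2.26, and was 4.50 in clone F and 5.76 in clone Q. Gm16312 was below 0 in clones B, C, L and U and 0 in clones A, I and J, with a mean of -5.67 in Fz10-CreER clones and 10.04 in Sox2-CreER clones. Gm17122 and Gm16312 are antisense models that overlap Coro1c and Nudt8 on the opposite strand. The opposite pattern was nearest in Gm47033, Gm44800 and 1700003D09Rik, with means of 0.63, 1.03 and 1.79 in Fz10-CreER clones and -6.41, -5.99 and -6.18 in Sox2-CreER clones. Lst1 differed by -6.74 in Fz10-CreER clones and -9.19 in Sox2-CreER clones (limma adjusted p = 0.9996 for the difference). With 2 Sox2-CreER clones these are differences between few cells.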

How the data were processed

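The deposited values are a normalised signal for each gene in each cell, called an exon plus intron TPM by the authors. Because each cell sums to 2000000, they were handled neither as counts nor as plain TPM. Per the submitters' processing notes, the tools include STAR 2.7.9a and R 4.0.3 and the build is GRCm39. How reads were counted, with which annotation and whether by strand, is not given in the sources used here. Depth is unknown, and no counting interval is given. Gene symbols, from the GENCODE M21 annotation of the build before GRCm39, were matched by identifier for 52083 of 55359 genes (27284 of the 27597 above 0 in the 18 cells). The same annotation gave overlapping genes.

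Values were analysed as log2(value + 1) with limma 3.58.1 in R 4.3.3 (clone plus tissue, eBayes with trend and robust), on genes that reached 1 in a minimum of 25% of the 18 cells, with Benjamini-Hochberg adjustment over all genes tested. The clone is the replicate. Because the labels name no animals, p-values describe the spread between clones. The clone letter pairs the cells because, by the design, both descend from the same progenitor. After subtraction of the tissue means, the correlation within a pair lay between -0.0155 and 0.0574, over 0.1 in 0 of 9 pairs. Single values were compared by two-sided exact sign flips over clones in Python 3.11.15 with numpy 2.4.6 and pandas 2.3.3, and figures were drawn with matplotlib 3.10.9. The fits were run on simulated data with known differences in genes of high mean, noise of limited spread and no tilt in detected genes. That setting differs from these cells, so it does not show how the fits behave on them.

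Named genes are those past the threshold, the 10 protein-coding and 3 other genes of smallest p per direction, up to 3 members of each gene list by p, a fixed set of transmitter genes and genes named by earlier results, and the 3 per direction of smallest p for the driver. Genes whose groups did not overlap or that were higher in 9 of 9 clones, Ntsr1, Grp, Rorb, Fos, Arc, Hspa5, Atp6v1g2 and the microglia markers Tyrobp, P2ry12, Tmem119 and Ptprc were added after their values were seen. Cd74 and H2-D1 were added in the same way. The pairs, the gene lists and the tests were chosen with earlier results of these data known. Alternatives changed the pseudocount (0.1 and 10), the filter (none and 50% of cells), the scaling (quantile normalization, and leaving out gene models with a mean share of 0.5% or more), the moderation, the block, the drivers and the clones included.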

Additional observations from a re-analysis of the deposited data

Results flagged for a closer look

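In 123 groups of 9 values examined for a value far from the rest, 10 paired differences (sSC minus dSC, log2) had 1 clone that stood apart, against about 1 in 20 groups by chance. Lst1 stood at -2.05 in clone U, whose sSC cell was the only one of the 9 with Lst1 above 0. Edem2 stood at -0.11 in clone A, with values of 29.7 in the sSC cell and 32.1 in the dSC cell.

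In clone B, whose sSC cell had the fewest detected genes, the respiratory chain subunit Ndufb8 stood at -9.22, the neuronal tubulin Tubb3 at -8.53 and the growth cone protein Gap43 at -6.30. Ndufb8 and Tubb3 were listed at 0 in that sSC cell and Gap43 had a value of 8.59, against 596, 368 and 757 in the dSC cell.

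Aldoc, an astrocyte-rich glycolytic enzyme, stood at -9.07 in clone I, listed at 0 in the sSC cell and at 538 in the dSC cell. Among the globins, Hba-a1 stood at -8.68 in clone F and Hbb-bs at 7.87 in clone I. The microglial adaptor Tyrobp stood at -11.33 in clone J, listed at 0 in the sSC cell and at 2582 in the dSC cell. Rorb stood at 8.45 in clone J, at 348.8 in the sSC cell and listed at 0 in the dSC cell.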

How the results depend on the processing

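The count of genes past the threshold was 1 with the clone block. With no replicate block it was 2 (Edem2 and Lst1), with the clone through duplicateCorrelation 3 (Slc7a3, Edem2 and Lst1), and with detected genes as a covariate or in Fz10-CreER clones alone 0. Leaving out each clone gave 1 to 2 genes, 2 without clone A (Edem2 and Lst1) and 2 without clone U (Lst1 and Rpl41). Fewer clones or fewer residual degrees of freedom were left in the covariate and Fz10-CreER fits. The driver count was 0 in every alternative run. The difference in detected genes was -2868 with no replicate block (exact permutation p = 0.0527) and ran from -3596 (without clone Q) to -2029 (without clone B) when each clone was left out (exact p from 0.0156 to 0.0625). The transmitter balance differed by -0.35 with Gad1 and Gad2 only, and between -1.47 and 2.01 when each clone was left out, so its sign rests on single clones. Among the named genes 22 of the values under alternatives changed sign. With the covariate these were Sdhd (0.18), Tubb3 (0.035), Olig1 (0.56), Snap25 (0.52), Slc17a6 (0.74), Gad2 (0.96) and P2ry12 (1.26). After quantile normalization they were Fzd10 (0.31) and Slc17a6 (0.19), without the top gene models Snap25 (0.068), and in Fz10-CreER clones Slc17a6 (0.38) and Gad1 (-0.63). Leaving out each clone gave -0.16 to 0.34 for Snap25, -1.23 to 0.93 for Slc17a6, -0.19 to 1.18 for Gad1 and -1.84 to 0.027 for P2ry12. The causes were not tested. Depth is unknown, and a 0 does not show that a transcript was absent from a cell. Each tissue is represented by 1 cell per clone, and layer, cell and library cannot be told apart within a pair.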

Other observations

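Housekeeping and neuronal gene groups lay close to the median of all genes (-0.67), of which 76.9% were below 0. Of 45 cytosolic ribosomal protein genes 37 were below 0 (median -0.59), of 42 oxidative phosphorylation genes 33 (median -0.49), and of 10 mitochondrially encoded genes 9 (median -0.33). Of 32 genes of the presynaptic release machinery 25 were below 0 (median -0.61), and of 20 neuron markers 17 (median -0.48). No member of these lists other than Rpl41 came near the threshold. Among neuropeptides 7 of 14 were below 0: Npy had medians of 73.9 in sSC and 0 in dSC (difference 2.02, SE 1.11), and Penk, the enkephalin precursor, had medians of 0 in sSC and 75.7 in dSC (difference -2.26, SE 1.23). Among calcium-binding proteins 9 of 16 were below 0 (56.2%), and Calb2 (calretinin) had medians of 70.8 in sSC and 224 in dSC (difference -2.11, SE 1.20). The antigen presentation genes Cd74 and H2-D1, picked after their values were seen, had differences of -2.93 (SE 1.03) and 1.52 (SE 0.91). In the list of lysosomal and antigen-processing genes 20 of 23 were below 0 and 3 above. None of these genes passed in limma, with adjusted p from 0.486 to 0.618.

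The cells outside the pairs gave 2 further values for genes named above. Slc7a3 was at 105 and 554 in the 2 PAG cells, the second above every value in the pairs. Within the pairs Yes1 reached 1 in 6 sSC cells and 1 dSC cell, and outside them in 2 of 13 sSC cells and 0 of 3 dSC cells.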
